A study of Mus musculus with 2 samples.

Results

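The dendritic migration and maturation genes are 8 of the 55386 features counted in both libraries, namely *Ccr7*, *Fscn1*, *Ccl22*, *Ccl17*, *Il4i1*, *Cacnb3*, *Socs2* and *Il12b*, each found by its gene symbol. A dendritic cell that has taken up antigen in a tissue can mature, make the chemokine receptor CCR7 and follow its ligands into lymph vessels and on to the lymph node. Maturation also remodels the actin skeleton and brings out costimulatory proteins, chemokines and cytokines that act on T cells. Naive T and B cells use CCR7 to enter lymph nodes as well, so that *Ccr7* transcripts are found in lymphocytes as well as in dendritic cells.

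The study counted transcripts of single CD45-positive cells sorted from the adventitia, the outer layer of the aorta. All mice carried *Rank*-Cre and Rosa26-eYFP, a pair of alleles in which the *Rank* promoter drives Cre and Cre turns on a yellow fluorescent reporter, and all were 16 weeks old. The steady-state library pooled 3 untreated mice, and the AngII library pooled 2 mice that received angiotensin II, a peptide that raises blood pressure and inflames the vessel wall, for 10 days from an osmotic pump under the skin at 1.8 µg per kg per min. Animals in a pool could not be told apart and each condition has 1 library, so there were no replicates, no p-value was computed, and every difference between the libraries is a difference between 2 samples.

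After filtering, the steady-state library held 306 cells with a median of 9105 transcript molecules, counted by their unique molecular identifiers (UMIs), and the AngII library held 4198 cells with a median of 1092. No cell barcode was shared by the libraries (0 in both). The deposited matrices held 346 barcodes with 4009678 UMIs and 4419 barcodes with 20481854 UMIs. Steady-state cells were therefore read far more deeply, and shares of cells are compared between libraries with each cell thinned to 1000 UMIs, which left out 3 steady-state cells and 1910 AngII cells.

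Cells were placed in 14 classes by marker genes, none of which is among the 8 genes, and a class is called "like" its cell type. A cell needed at least 3 markers of a class and joined the class with the highest share of its markers found. In the steady-state library 288 cells were placed and in the AngII library 3297, while 901 AngII cells with a median of 720 UMIs stayed unplaced. Droplets that may hold a pair of cells were left in. Levels are the summed UMIs of a gene over all UMIs of the class, in CPM, with exact Poisson intervals, and for shares the intervals are Clopper-Pearson ones. All intervals are at 95% and cover counting error only. On AngII, cells that led the next class by an eighth of the markers or less were 316 of 2133 macrophage-like, 41 of 120 cDC2-like (type-2 conventional dendritic cells), 45 of 261 T cell-like and 20 of 102 B cell-like cells, and at steady state 11 of 137, 2 of 13, 1 of 38 and 1 of 50.

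A mature dendritic cell (DC)-like class was found in the AngII library alone, with 44 of 4198 cells (1.05%, 0.763 to 1.40), a median of 1823.5 UMIs and 19 cells of at least 5000 UMIs. The steady-state library held 0 of 306, which allows a share of up to 0.980%, so the libraries were not shown to differ in this share. The 0 also depends on the gate. A steady-state cell with 10 of the 10 mature DC markers stayed unplaced because it tied with 8 of 8 T cell markers. Another with 8 of the 10 was macrophage-like, with 8 of 8 macrophage markers. The median cell of the class had 5 of its 10 markers, 2 of 8 markers of cDC2, 1 of 8 each for macrophages, nonclassical monocytes and type-1 conventional dendritic cells (cDC1), and 0 for T and B cells. The median AngII cDC2-like cell had 5 of its 8 markers and 2.5 of the 10 mature DC markers. Lymphoid classes on AngII held some of these 10 as well. The median was 4 in the 8 type-2 innate lymphoid cell-like cells and 2.5 in the 12 natural killer cell-like cells. Of the 44 mature DC-like cells, 18 had a lead of an eighth or less. Genes of mature dendritic cells that took no part in the gate also stood high there, with *Cd83* at 596 CPM against 108 in the other AngII cells, *Cd80* at 170.0 against 31.7, *Cd40* at 146 against 28.3 and *Il15ra* at 122 against 6.05. Levels were lower in the 21 cells of the class with fewer than 3 of the 8 genes. Their *Cd83*, at 124 CPM (59.2 to 227), and *Cd80*, at 74.1 (27.2 to 161), had intervals that reached the level of the other AngII cells. Their *Cd40*, at 98.8 (42.7 to 195), and *Il15ra*, at 37.1 (7.64 to 108) from 1 cell, stayed above that level.

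All 8 genes were higher in mature DC-like cells than in the other placed AngII cells, by 33.3 to 551 times. Over all 12722 genes with at least 20 UMIs in this comparison, 10.2% were at least 2 times higher in the mature DC-like cells, and the median ratio was 0.679 (69.3 for the 8 genes). Each of the 8 stayed past 2 times in all 13 alternative settings. These 44 cells made up 1.05% of the library and held 1.86% of its UMIs, yet carried 87.9% of the *Fscn1* UMIs, 63.3% of *Cacnb3*, 57.6% of *Ccl22*, 54.6% of *Ccr7*, 47.6% of *Il4i1*, 41.0% of *Ccl17* and 37.7% of *Socs2*. For *Il12b* they held 90% of 40 UMIs.

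**Figure D1:**
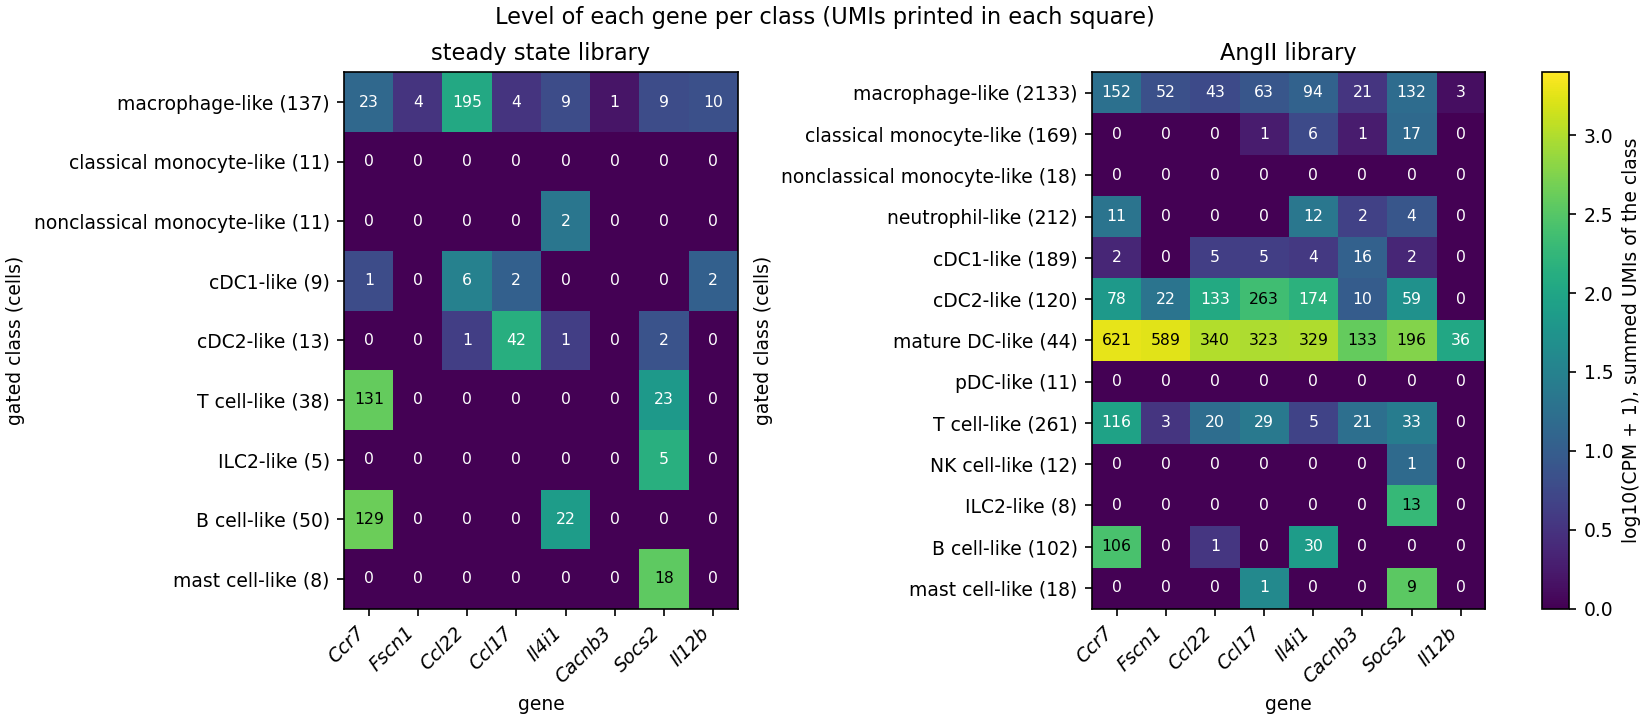
Level of each gene (columns) in each class with at least 5 cells (lines, number of cells in brackets), as log10(CPM + 1) by colour, with the summed UMIs printed in each square, for the steady-state library (left) and the AngII library (right). The mature DC-like line is the brightest for all 8 genes in the AngII library, and the T cell-like and B cell-like lines show Ccr7 in both libraries.

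*Ccr7* and *Fscn1* act in migration. *Ccr7* (ENSMUSG00000037944.8, GRCm38 chromosome 11, 99144196 to 99155077, minus strand) encodes the receptor for CCL19 and CCL21. Its level was 1852 CPM (1709 to 2003) in mature DC-like cells and 30.2 in the other placed AngII cells, a ratio of 61.3 (54.3 to 69.3). A UMI was found in 20 of 44 mature DC-like cells (45.5%, 30.4 to 61.2), while the background class, classical monocyte-like cells, had 0 of 169, which allows up to 1.78%, at median depths of 1823.5 and 4337 UMIs. B cell-like cells came second in the AngII library, at 265 CPM. The ratio was 103 after T, B, natural killer (NK) and type-2 innate lymphoid cell (ILC2)-like cells were left out. It was 34.5 as the mean of single-cell CPM and 31.9 after thinning to 500 UMIs.

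*Fscn1* (ENSMUSG00000029581.14, chromosome 5, 142960343 to 142973185, plus strand) encodes fascin, which bundles actin filaments into the long processes of mature dendritic cells. It was the gene with the largest part of its UMIs in the mature DC-like class, apart from the sparse *Il12b*. Its level was 1756 CPM (1617 to 1904) there and 5.0 elsewhere, a ratio of 351 (276 to 451), and 22 of 44 cells (50%, 34.6 to 65.4) had a UMI against 0 of 102 B cell-like cells (up to 2.94%, median depth 3683 UMIs). Outside the class, *Fscn1* lay mainly in 6 of 2133 macrophage-like cells, where 1 cell held 37 of 52 UMIs, and in 4 of 120 cDC2-like cells. Leaving out cells with at least 6 markers of classes of 2 or more lineages raised the ratio to 887. In the steady-state library only 17 UMIs were found in 5 cells, 13 of them in 1 cell.

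*Ccl22* and *Ccl17* encode the ligands of CCR4, a receptor of regulatory and type-2 helper T cells, and are neighbours on chromosome 8 with 58.8 kb between them, *Ccl22* (ENSMUSG00000031779.3) at 94745590 to 94751699 and *Ccl17* (ENSMUSG00000031780.2) at 94810453 to 94812036, both on the plus strand. *Ccl22* stood at 1014 CPM (909 to 1127) in mature DC-like cells and 13.1 elsewhere, and *Ccl17* at 963 CPM (861 to 1074) and 23.5, ratios of 77.2 (64.7 to 92.4) and 40.9 (35.1 to 47.7). The alternatives moved the ratios beyond these intervals, to between 31.3 (thinned to 500 UMIs) and 248 (classes by summed marker CPM) for *Ccl22*, and between 24.1 (mean of single-cell CPM) and 50.0 (thinned to 2000 UMIs) for *Ccl17*. A *Ccl22* UMI was found in 19 of 44 mature DC-like cells (43.2%, 28.3 to 59.0), and a *Ccl17* UMI in 8 (18.2%, 8.19 to 32.7), against 1 of 102 B cell-like cells (0.980%) for *Ccl22* and 0 of 102 (up to 2.94%) for *Ccl17*. After thinning the shares in the class were near each other, 7 of 28 cells (25%, 10.7 to 44.9) for *Ccl22* and 6 of 28 (21.4%, 8.30 to 41.0) for *Ccl17*. Single cells weighed heavily, since 1 cell held 36.5% of the *Ccl22* and 35.3% of the *Ccl17* UMIs of the class.

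The chemokines also stood high in AngII cDC2-like cells, the class second in order for both. *Ccl17* reached 229 CPM (202 to 259) in 11 of 120 cells and *Ccl22* 116 CPM (97.1 to 137) in 5 of 120, with 104 of 133 *Ccl22* UMIs in 1 cell. The steady-state cDC2-like cells, only 13 in number, had 136 CPM of *Ccl17*, with 40 of 42 UMIs in 1 cell, and 3.24 of *Ccl22*. Steady-state *Ccl22* was concentrated in the same way, with 175 of 262 UMIs in 1 macrophage-like cell and 60 in 1 unplaced cell.

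*Il12b* (ENSMUSG00000004296.14, chromosome 11, 44400063 to 44414033, plus strand) encodes the p40 chain shared by interleukin-12 and interleukin-23, which drive T helper cells towards inflammatory types. It was the sparsest of the 8 genes in the AngII library. Mature DC-like cells held 36 UMIs in 5 of 44 cells (11.4%, 3.79 to 24.6), or 107 CPM (75.2 to 149), and the other placed AngII cells held 3 UMIs, a ratio of 551 (174 to 2795). B cell-like cells had 0 of 102 (up to 2.94%). Thinning to 1000 UMIs left 0 UMIs in the other cells and a ratio of at least 23.8. At steady state, 32 UMIs lay in 3 cells with 20, 10 and 2 each.

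The remaining genes encode an enzyme, a signalling inhibitor and a channel subunit. *Il4i1* (ENSMUSG00000074141.13, chromosome 7, 44816387 to 44840809, plus strand) encodes a secreted oxidase of aromatic amino acids that dampens T cell proliferation. Its annotated span overlaps *Nup62* on the same strand and *Atf5* and *Tbc1d17* on the other, so its level is uncertain. *Il4i1* stood at 981 CPM (878 to 1093) in mature DC-like cells and 21.1 elsewhere, a ratio of 46.5 (39.7 to 54.3), and 21 of 44 cells (47.7%, 32.5 to 63.3) had a UMI against 5 of 261 T cell-like cells (1.92%, median depth 1302 UMIs). It was also found in other antigen-presenting classes. AngII cDC2-like cells had 152 CPM in 22 of 120 cells, and B cell-like cells had 75 CPM in 19 of 102 cells on AngII and 74.3 CPM in 15 of 50 at steady state.

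*Socs2* (ENSMUSG00000020027.18, chromosome 10, 95385362 to 95417180, minus strand) encodes a suppressor of cytokine signalling that acts on the JAK-STAT pathway. It stood at 584 CPM (505 to 672) in mature DC-like cells and 17.5 elsewhere, the lowest ratio of the 8 genes at 33.3 (27.6 to 40.2), and the ratio was 13.3 after thinning to 500 UMIs. A UMI was found in 22 of 44 cells (50%, 34.6 to 65.4) against 0 of 102 B cell-like cells (up to 2.94%). Mast cell-like and ILC2-like cells carried it too. Mast cell-like cells had 359 CPM (213 to 567) in 6 of 8 cells at steady state and 352 CPM (161 to 669) in 4 of 18 on AngII, intervals that overlap that of the mature DC-like class on AngII. ILC2-like cells had 139 CPM in 3 of 5 and 191 CPM in 5 of 8.

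*Cacnb3* (ENSMUSG00000003352.14, chromosome 15, 98630840 to 98644529, plus strand) encodes a cytoplasmic beta subunit of voltage-gated calcium channels. Its level was 397 CPM (332 to 470.0) in mature DC-like cells and 4.61 elsewhere, a ratio of 86.0 (64.0 to 116), with a UMI in 18 of 44 cells (40.9%, 26.3 to 56.8) and in 0 of 102 B cell-like cells (up to 2.94%). Outside the mature DC-like class it was found as 1 to 3 UMIs per cell in 14 of 261 T cell-like cells (16.3 CPM) and 13 of 189 cDC1-like cells (10.5 CPM). AngII macrophage-like cells had 21 UMIs in 13 of 2133 cells (2.37 CPM), 9 of them in 1 cell, and cDC2-like cells had 10 UMIs in 2 of 120 cells (8.72 CPM), 6 of them in 1 cell. The steady-state library had 29 UMIs, 28 of them in 1 cell.

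Several of the 8 genes met in a small set of single cells. Counting the genes found per cell, 3617 of the 4198 AngII cells had 0, 432 had 1, 96 had 2, and 25, 8, 8, 3 and 9 had 3, 4, 5, 6 and 7. The 53 cells with at least 3 of the genes (1.26%, 0.947 to 1.65) carried 72.3% of all UMIs of the 8 genes. Of these cells 23 were mature DC-like, 12 unplaced, 7 cDC2-like, 6 macrophage-like, 3 T cell-like and 2 neutrophil-like. The 27 cells of at least 5000 UMIs held 68.3% of the UMIs of the 8 genes and the 26 shallower cells 4.0%. Their median depths were 14948 and 845.5 UMIs, and a share of UMIs rises with depth. In CPM, the shallower cells were higher for *Ccl22* (1824 against 1100), *Ccl17* (1574 against 1091) and *Il4i1* (1144 against 957). They were lower for *Ccr7*, *Fscn1*, *Cacnb3* and *Socs2*, and held 0 UMIs of *Il12b*. All 53 cells were chosen for a UMI of at least 3 of these same genes, and 1 UMI makes a larger CPM in a shallow cell. The choice and the depth thus set these CPM in part, and the higher values are not read as a difference between the cells.

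At steady state 3 of 306 cells (0.980%, 0.203 to 2.84) had at least 3 of the genes, and after thinning the shares were 2 of 303 (0.660%, 0.0800 to 2.36) and 23 of 2288 (1.01%, 0.638 to 1.5). The shares of the libraries overlapped in their intervals at full depth and after thinning. The 3 steady-state cells were unlike each other. An unplaced cell with 48618 UMIs held all 8 genes, with 60 UMIs of *Ccr7*, 60 of *Ccl22*, 35 of *Il4i1*, 28 of *Cacnb3*, 22 of *Socs2*, 21 of *Ccl17*, 20 of *Il12b* and 13 of *Fscn1*. It had 10 of 10 mature DC markers and 8 of 8 T cell markers, so the gate could not place it. A macrophage-like cell with 17090 UMIs held 6 of the genes, with 175 *Ccl22* UMIs, beside 8 of 8 macrophage, 8 of 10 mature DC, 6 of 8 B cell and 6 of 8 T cell markers. A cDC2-like cell with 34253 UMIs held 3 of the genes, with 40 *Ccl17* UMIs. Whether the first of these droplets, or the second, held more than 1 cell was not tested.

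**Figure D2:**
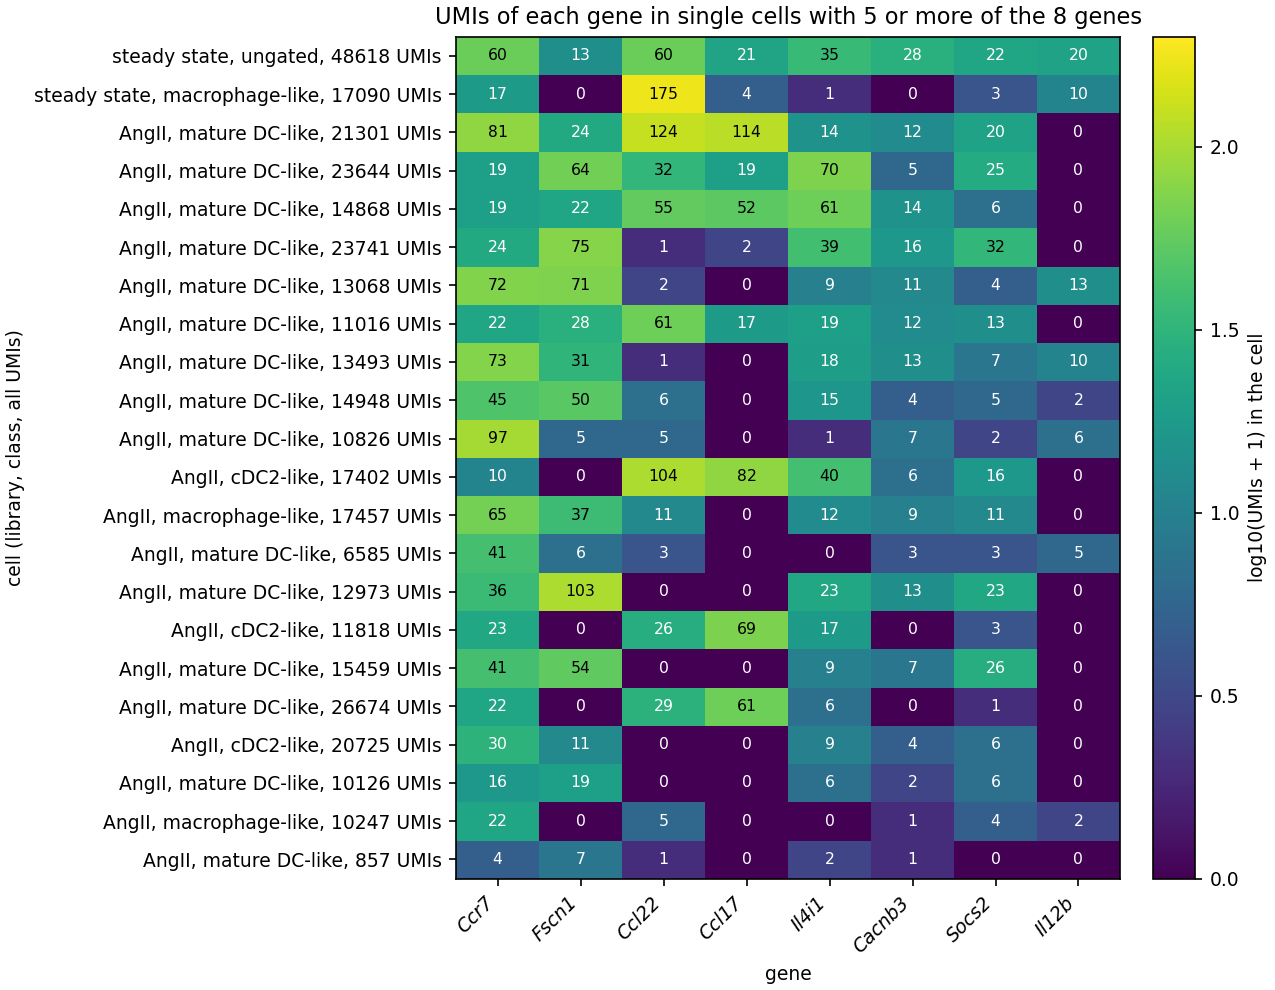
UMIs of each gene (columns) in each cell with at least 5 of the 8 genes (lines, labelled by library, class and all UMIs of the cell), coloured by log10(UMIs + 1). Cells with Il12b in the AngII library show no Ccl17, and cells with many Ccl17 UMIs also show many Ccl22 UMIs.

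Of the 28 pairs of the genes, 27 were found together in at least 1 AngII cell, and the pair never found together was *Ccl17* and *Il12b* (0 of 92 cells with *Ccl17*, which allows up to 3.26%, and 0 of 8 with *Il12b*, which allows up to 37.5%). Over all AngII cells *Il12b* was found in 0.191% and *Ccl17* in 2.19%, both within these bounds, so the 0 does not show that the genes lie apart. The 0 also holds for the filtered cells only, as 1 AngII barcode removed for its number of genes held 432 UMIs of *Ccl17* and 28 of *Il12b*. In the steady-state library all 28 pairs met, in a median of 2 cells, but the unplaced cell with all 8 genes brings every pair together by itself, and 12 pairs met in that cell alone. After thinning 8 pairs met at steady state and 25 in the AngII library. *Ccr7* and *Il4i1* shared the most cells, 55 on AngII and 13 at steady state. Without the lymphocyte-like cells this pair shared 44 cells on AngII, still the most, and 2 at steady state, where the highest number was 5, for *Ccl22* and *Il4i1*.

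Cells with *Fscn1* often held other genes of the group. Of 39 AngII cells with *Fscn1*, 23 had *Il4i1* (59.0%, 42.1 to 74.4), against 3.29% of cells without *Fscn1*. *Ccr7* was found in 22 of the 39 (56.4%, 39.6 to 72.2), against 4.57% of the others, *Socs2* in 19 (48.7% against 4.33%) and *Cacnb3* in 18 (46.2% against 1.18%). *Ccl22* was found in 16 (41.0% against 1.42%), while *Ccl17* was found in 5 (12.8% against 2.09%). When a gene counted as found from 2 UMIs, *Ccr7* was in 85.7% of the *Fscn1* cells, and with cells thinned to 500 UMIs in 43.5%. With each cell thinned to 1000 UMIs, 19 cells had *Fscn1*. *Ccr7* and *Il4i1* were found in 12 of these each (63.2%, against 3.09% and 2.12% of the other cells), *Socs2* in 7 (36.8% against 2.12%), *Cacnb3* in 5 (26.3% against 0.529%), and *Ccl22* and *Ccl17* in 4 each (21.1%, against 0.705% and 1.19%). The partners thus stayed more frequent in cells with *Fscn1* at equal depth.

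The chemokine pair was joined more closely to each other than *Ccl17* was to *Fscn1*. Of 75 AngII cells with *Ccl22*, 30 also had *Ccl17* (40%, 28.9 to 52.0), against 1.5% of cells without *Ccl22*. Of 92 cells with *Ccl17*, those 30 (32.6%, 23.2 to 43.2) had *Ccl22*, 22 had *Il4i1* (23.9%), 15 had *Ccr7* (16.3%) and 5 had *Fscn1* (5.43%). Of the 8 AngII cells with *Il12b*, 7 had *Ccl22* (87.5%, 47.3 to 99.7), 6 each had *Ccr7*, *Cacnb3* and *Socs2*, 5 had *Fscn1*, 4 had *Il4i1* and 0 had *Ccl17*. At steady state 2 of 3 cells with *Il12b* also had *Ccl17* (66.7%, 9.43 to 99.2).

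**Figure D3:**
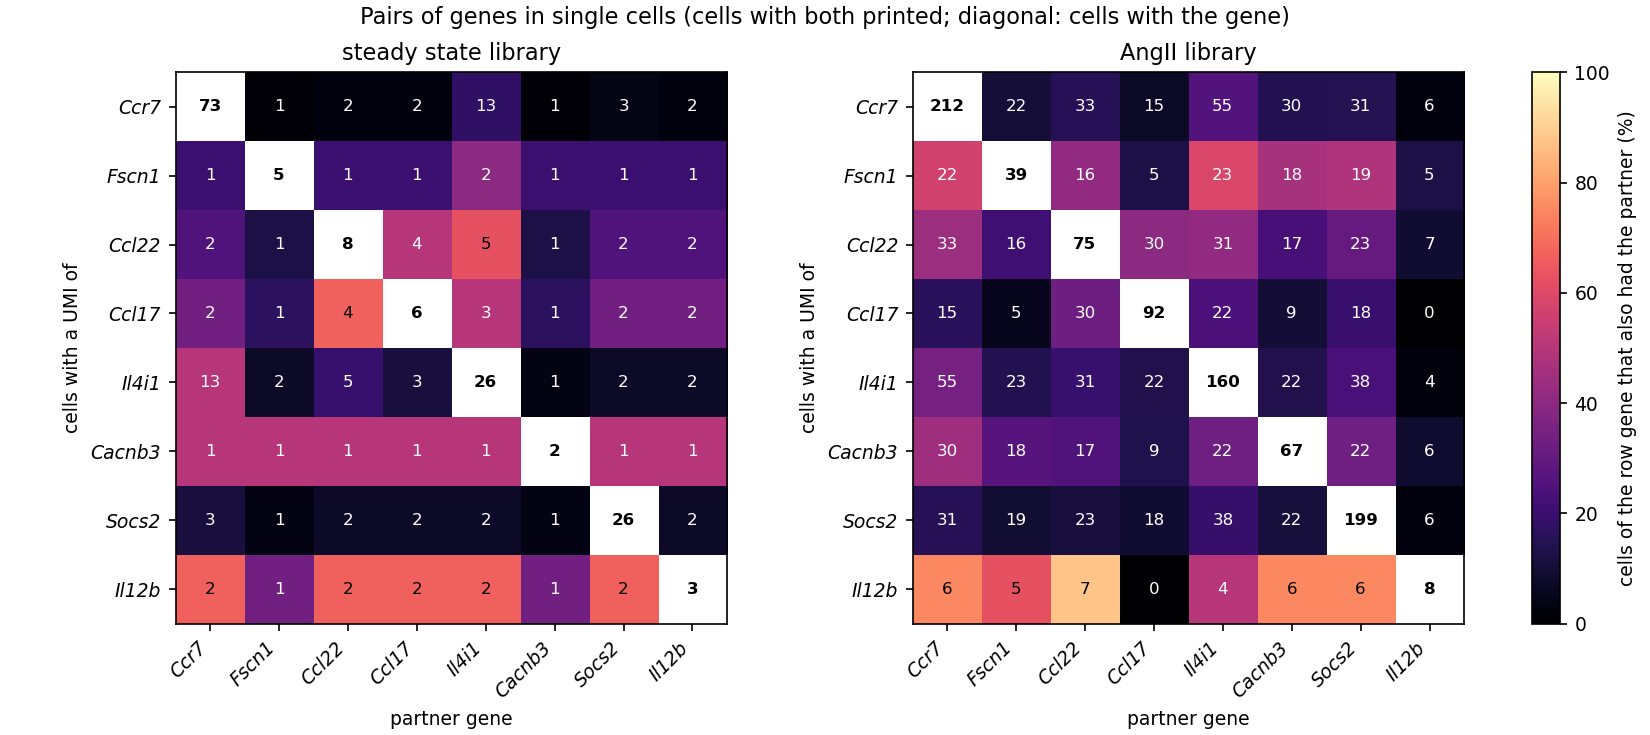
Cells with a UMI of both genes of each pair, printed in the squares and coloured by the share of cells of the gene on the left that also had the partner below, in the steady-state (left) and AngII (right) libraries, with the cells of each gene on the diagonal. On AngII, Ccl17 and Il12b share 0 cells and Ccr7 and Il4i1 share 55.

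The genes were also counted within deep cells. Among AngII cells of at least 5000 UMIs, 22 mature DC-like or cDC2-like cells (median 14908 UMIs) had at least 3 of the genes. *Socs2* was found in 22 of them, *Ccr7* and *Il4i1* in 20 each, *Fscn1* in 17, *Cacnb3* in 16, *Ccl22* in 14, *Ccl17* in 9 and *Il12b* in 5. The median cell held 22.5 *Ccr7*, 15 *Fscn1*, 13 *Il4i1*, 6 *Socs2*, 4.5 *Cacnb3* and 1.5 *Ccl22* UMIs, and 0 of *Ccl17* and *Il12b*. The cells were chosen for holding at least 3 of the same 8 genes, which sets these shares in part.

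The cells rich in chemokines and those rich in *Fscn1* overlapped in part. At least 10 *Ccl22* UMIs were found in 7 of the 22 cells, and the same 7 had at least 10 *Ccl17* UMIs. At least 10 *Fscn1* UMIs were found in 13 cells, of which 4 had at least 10 *Ccl17* UMIs and 8 had 0. Conversely, 3 of the 7 cells with at least 10 *Ccl17* UMIs had no *Fscn1*. All 5 cells with *Il12b* had 0 *Ccl17* UMIs and 9 or 10 of the 10 mature DC markers. These groups were drawn after the values were seen and hold few cells, and the division was not tested.

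Lymphocytes carried most of the steady-state *Ccr7* in placed cells. T cell-like cells held 391 CPM (327 to 464) with a UMI in 28 of 38 cells (73.7%, 56.9 to 86.6), and B cell-like cells held 436 CPM (364 to 518) in 37 of 50 (74%, 59.7 to 85.4). On AngII the levels were 89.8 CPM (74.2 to 108) in 45 of 261 T cell-like cells and 265 CPM (217 to 321) in 40 of 102 B cell-like cells. After thinning, *Ccr7* was found in 42.1% (26.3 to 59.2) of 38 T cell-like cells at steady state and 6.55% (3.31 to 11.4) of 168 on AngII, with 0 and 93 cells left out. In B cell-like cells the thinned shares were 30.6% (18.3 to 45.4) of 49 and 21.2% (12.1 to 33.0) of 66.

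*Ccr7* in T cell-like cells was thus lower in the AngII library, at 0.230 times (0.177 to 0.297) the steady-state level. Of the 5 genes with at least 20 UMIs in T cell-like cells, 3 differed by 2 times or more in either direction, against a background of 28.2% of 7722 genes. The other 2 of these were *Socs2*, at 25.6 CPM on AngII and 68.6 at steady state (0.372 times, 0.212 to 0.664), where 10 of its 23 steady-state UMIs lay in 1 of 38 cells and the ratio was 0.645 (0.331 to 1.34) without the cell with the most UMIs, and *Ccl17*, at 22.5 CPM on AngII and in 0 of 38 cells, which allows up to 7.89%, at steady state (at least 2.51-fold higher). Thinned to 1000 UMIs, 1 of the genes still differed by 2 times, and *Ccr7* stood at 0.158 times. That was the lowest *Ccr7* ratio of 11 alternatives, and the highest was 0.476 (0.334 to 0.681), without cells that had at least 3 markers of classes of 2 or more lineages. In B cell-like cells 0 of the 2 genes with enough UMIs differed by 2 times, against 10.9% of 4565 genes. Their *Ccr7* ratio was 0.609 (0.466 to 0.793) and their *Il4i1* ratio 1.01 (0.564 to 1.84).

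Some genes of naive T cells were higher in T cell-like cells with *Ccr7*. At steady state the transcription factor genes *Lef1* and *Klf2* were 8.37 (4.15 to 19.7) and 6.49 (4.18 to 10.6) times higher in the 28 cells with *Ccr7* than in the 10 without, *Tcf7* 3.02 (1.79 to 5.46) times, and *S1pr1*, which encodes the receptor for leaving lymph nodes, 5.95 (2.92 to 14.1) times, while 8.33% of 2388 genes were 2 times or more higher. On AngII, *S1pr1* was 5.25 (3.59 to 7.83) and *Klf2* 2.83 (2.34 to 3.43) times higher in the 45 cells with *Ccr7*, but *Lef1* 1.21 (1.03 to 1.42) and *Tcf7* 1.16 (1.02 to 1.32) times, against 3.61% of 7058 genes past 2 times. The AngII cells with *Ccr7* were much deeper, with a median of 7780 UMIs against 1117.5, whereas the steady-state medians were 8311 and 6970. B cell-like cells did not show the rise, with *S1pr1* at 0.794 (0.478 to 1.36) and *Klf2* at 0.723 (0.585 to 0.897) times in those with *Ccr7* at steady state, and 0.871 (0.548 to 1.39) and 0.819 (0.668 to 1.01) times on AngII.

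In macrophage-like cells 6 of the 7 genes with at least 20 UMIs differed by 2 times or more in either direction between the libraries, against 17.3% of 11607 genes, and for some of the genes most UMIs came from 1 cell. *Ccl22* stood at 110 CPM at steady state, with 175 of 195 UMIs in the cell with 8 macrophage and 8 mature DC markers, and 4.84 on AngII, a ratio of 0.0438 (0.0307 to 0.0613) that was 0.423 without the cell with the most UMIs. *Fscn1* was 2.58 times (0.951 to 9.84) higher on AngII and 0.747 times (0.238 to 3.09) without that cell, and it counts among the 6. *Socs2* was spread over more cells, with 132 UMIs in 83 of 2133 cells on AngII, at most 11 in 1 cell, and 9 UMIs in 4 of 137 cells at steady state. Its level was 14.9 against 5.10 CPM, 2.92 times (1.49 to 6.52) higher on AngII, and the ratio was 2.08 to 7.35 in the 10 alternatives that gave a value. Thinned to 1000 UMIs, *Socs2* was found in 23 of 1257 AngII cells (1.83%, 1.16 to 2.73) and 0 of 135 at steady state, which allows up to 2.22%. *Il4i1*, with 94 UMIs in 47 AngII cells, was at 10.6 against 5.10 CPM, and its ratio was 1.22 to 3.27 in 10 alternatives. After cells with at least 6 markers of 2 or more lineages were left out, 129 steady-state macrophage-like cells held 0 *Ccr7* UMIs (up to 2.33% of cells) and 12.7 CPM of *Ccl22*, and 2093 AngII cells held 6.93 and 3.22 CPM. *Socs2* was at 13.7 CPM on AngII and 3.80 at steady state in these cells, and *Fscn1* at 0.371 CPM (3 UMIs) on AngII and 2.53 (4 UMIs) at steady state, the reverse of the order over all cells. Thinned to 1000 UMIs, 1 gene differed by 2 times.

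In cDC2-like cells 4 of the 6 genes with at least 20 UMIs differed by 2 times or more in either direction, against 23% of 6708 genes, and all 4 were higher on AngII. *Ccr7* was at 68.0 CPM against 0 UMIs in 13 cells, at least 6.99-fold higher. *Il4i1* was at 152 against 3.24 CPM (46.8 times, 8.28 to 1858), *Ccl22* at 116 against 3.24 (35.8 times, 6.31 to 1423) and *Socs2* at 51.5 against 6.49 (7.93 times, 2.10 to 67.0). The steady-state levels rest on 13 cells and at most 2 UMIs each, and the count fell to 0 after thinning to 1000 UMIs. On AngII most of these UMIs lay in the 22 of 120 cells with at least 6 of the 10 mature DC markers, which held 69 of 78 *Ccr7*, 131 of 133 *Ccl22*, 146 of 174 *Il4i1* and 41 of 59 *Socs2* UMIs. Those 22 cells had a median of 17620 UMIs, and the other 98 had 1640. In the 98 cells *Ccr7* was at 11.7 CPM, *Ccl22* at 2.61, *Il4i1* at 36.5 and *Socs2* at 23.5. The split was drawn after the values were seen, and the parts of depth and of mature DC-like cells in the rise were not tested.

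Other genes of maturation stood high in the AngII mature DC-like class beside the 8. Of the costimulation and checkpoint ligands, 9 of the 9 genes with at least 20 UMIs were 2 times or more higher than in other placed cells, with a median ratio of 5.44, against 10.2% of all 12722 genes and a median of 0.679. The same share and median stand behind each list below. *Pdcd1lg2* and *Cd274*, which encode the ligands of the checkpoint receptor PD-1, were 25.9 (16.6 to 39.8) and 16.7 (13.3 to 20.9) times higher, and *Cd83*, *Cd80*, *Cd40* and *Cd86* were 5.71, 5.44, 5.05 and 3.38 times higher. Among NF-kB subunits and targets 7 of 10 passed 2 times (median 2.92), with the inhibitor of apoptosis gene *Birc2* at 10.1 (8.27 to 12.1) and the subunit genes *Rel*, *Nfkb2* and *Nfkb1* at 7.77, 4.15 and 3.16 times. Of the IL-15 and retinoic acid genes 3 of 3 passed (median 15.5), with the receptor gene *Il15ra* at 20.9 and *Aldh1a2*, which encodes an enzyme that makes retinoic acid, at 15.5 times.

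Lists tied to the roles of the 8 genes moved less as a whole. Of all 12722 genes, 20.2% were at 0.5 times or less, so counts of 1 or 2 lower genes in a list are read against that share. Among actin and migration genes, 5 of 10 were 2 times or more higher and 1 was at most 0.5 times (median 1.56), with the myosin gene *Myo1g* at 7.68 and the integrin gene *Itgb2* at 0.365. In the SOCS family 2 of 7 were higher, *Socs1* at 3.55 and *Cish* at 3.45, and 2 were lower, *Socs6* at 0.182 (0.0375 to 0.535; 3 UMIs) and *Socs5* at 0.244 (0.00615 to 1.38; 1 UMI), with a median of 1.27 for the list. MHC class II genes had 0 of 6 past 2 times and 1 at 0.5 times or less, *H2-DMa* at 0.483 (median 1.38). For naive lymphocyte homing, 1 of 6 was higher and 3 lower (median 0.413), and *Lef1* had 0 UMIs in the class. For IL-12 family subunits and receptors, 1 of 4 genes with enough UMIs was higher, *Il23a* at 11.2 (median 1.56), while *Il12a*, the partner of p40 in interleukin-12, had 1 UMI in the class. Of amino acid catabolism genes, 1 of 4 was higher, *Kynu* at 5.40, and 1 was at 0.5 times or less (median 0.874). A gene with 0 UMIs in the class enters these medians as 0.

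The shortest lists held few UMIs. Of the calcium channel beta subunits 1 gene had enough UMIs, *Cacnb1* at 6.26 times with 3 UMIs (1.20 to 20.8). Of the CCL17 and CCL22 receptors only *Ccr4* had enough, with 0 UMIs in the class and 38 in the other placed cells, and 0 passed. The fascins, *Fscn2* and *Fscn3*, and the CCR7 ligands and scavenger, of which 4 of 5 genes were matched, had 0 genes with 20 UMIs and 0 UMIs in the class. *Il23a*, *Il12a*, *Kynu*, *Socs5*, *Socs6* and *Cacnb1* had fewer than 20 UMIs in the class and were named after their values were seen.

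Genes with the most similar pattern were looked for in 2 ways. Outside the 8, the highest ratios in the 53 AngII cells with at least 3 of the genes over all other AngII cells were those of *Scin*, which encodes an actin-severing protein, at 334 (168 to 758), *Nudt17* at 165 (102 to 279), *Mreg* at 82.1 (53.3 to 129), *Mir155hg*, the host gene of an immune microRNA, at 60.8 (40.7 to 91.6) and *Cd200*, which encodes an inhibitory surface protein, at 49.1 (36.5 to 66.2). *Nudt17* and *Cd200* are among the markers of the mature DC gate. No steady-state gene qualified, with 3 such cells.

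Over the 11 classes with at least 20 cells, which share libraries and differ in depth, the Pearson r of log2(CPM + 20) was highest with *Gtpbp1* (0.958) and *Birc2* (0.942) for *Ccr7*, and with *Scin* (0.997) and *Lad1* (0.995) for *Fscn1*. For *Ccl22* it was highest with *Ccdc122* (0.955) and *Slc27a3* (0.933), and for *Ccl17* with *Adam23* (0.990) and *Rgs12* (0.989). *Il4i1* was nearest to *Gm43430* (0.975) and *Car2* (0.970), *Cacnb3* to *Slc4a8* (0.987) and *Eno3* (0.982), *Socs2* to *Snhg15* (0.963), and *Il12b* to *Tm4sf5* (0.992) and *Nudt17* (0.991). Among the 8 genes themselves, r ran from 0.446 for *Ccr7* and *Ccl22* to 0.980 for *Fscn1* and *Il12b*, and *Ccr7* had its highest value with *Il4i1*, at 0.706. The mature DC-like class is 1 of the 11 points and pulls all of these values.

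As the genes were high together in 1 class, the promoters are shown for the chemokines, *Il4i1* and *Il12b*. RefSeq promoters of GRCm38.p6, 250 bases before to 50 bases after the start, were matched for 6 of the 8 genes, all but *Ccr7* and *Socs2*. The letters GGGANTT, part of a site bound by NF-kB proteins, were searched on both strands and are in capitals. They occurred in the promoters of *Ccl22* (2 matches), *Il12b* (2) and *Il4i1* (1), and in none for *Ccl17*, *Fscn1* and *Cacnb3* (2 promoters), and 16.5% of the 32851 promoters in the table hold them. A match is a description of letters only. All 4 lie on the plus strand, *Ccl22* at chr8:94745434-94745733, *Ccl17* at chr8:94810203-94810502, *Il4i1* at chr7:44836038-44836337 and *Il12b* at chr11:44399813-44400112.
Ccl22: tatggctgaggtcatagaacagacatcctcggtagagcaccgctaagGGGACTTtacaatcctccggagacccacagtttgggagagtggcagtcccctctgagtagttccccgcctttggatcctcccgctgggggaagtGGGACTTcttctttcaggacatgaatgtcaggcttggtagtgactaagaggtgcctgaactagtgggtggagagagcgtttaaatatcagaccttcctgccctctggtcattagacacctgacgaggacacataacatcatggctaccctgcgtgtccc
Ccl17: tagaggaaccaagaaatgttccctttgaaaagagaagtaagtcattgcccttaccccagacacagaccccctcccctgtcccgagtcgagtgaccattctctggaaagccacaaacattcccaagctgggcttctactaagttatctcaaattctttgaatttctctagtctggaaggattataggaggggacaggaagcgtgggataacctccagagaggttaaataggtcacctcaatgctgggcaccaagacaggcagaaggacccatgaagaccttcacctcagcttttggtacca
Il4i1: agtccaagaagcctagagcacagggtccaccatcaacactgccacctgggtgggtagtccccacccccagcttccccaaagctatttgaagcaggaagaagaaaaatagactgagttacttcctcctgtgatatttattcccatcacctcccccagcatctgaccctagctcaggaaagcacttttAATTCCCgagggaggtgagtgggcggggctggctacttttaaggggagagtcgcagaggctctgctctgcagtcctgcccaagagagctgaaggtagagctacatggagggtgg
Il12b: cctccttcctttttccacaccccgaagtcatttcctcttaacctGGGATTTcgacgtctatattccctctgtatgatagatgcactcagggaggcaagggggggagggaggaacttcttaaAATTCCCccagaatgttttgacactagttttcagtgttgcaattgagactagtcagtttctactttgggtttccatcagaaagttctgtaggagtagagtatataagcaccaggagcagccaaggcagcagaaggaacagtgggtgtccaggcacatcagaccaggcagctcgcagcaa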

How the data were processed

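UMI counts per gene and cell barcode were used as deposited. The authors demultiplexed the reads with bcl2fastq and Je and counted UMIs with Cell Ranger 3.1.0 on GRCm38.p6, to which eYFP was added, using GENCODE M24, and deposited the counts without normalization. Kept were barcodes with 300 to 6500 genes whose mitochondrial UMIs were 5% or less. Matplotlib 3.10.9, pandas 2.3.3, SciPy 1.17.1 and NumPy 2.4.6 were used under Python 3.11.15. Ratios of CPM carry exact conditional intervals, a count of 0 was set to 3 UMIs for bounds, and 2 times was the size counted. Coordinates are from GENCODE M21, in which the 8 gene ID versions are the same. Members and lists were chosen with earlier results of these data known. Named genes are the 8, genes of the lists and checks with at least 20 UMIs in the class described or at 0, the 5 genes per library with the highest ratio in cells with at least 3 of the 8 (at least 50 UMIs, at least 5 such cells) and 1 or 2 of those with the highest r per gene. Alternatives changed the cell filter, the gate, the depth, the UMIs for a found gene, cells with markers of several lineages, the top cell and the averaging. The steps were tested on simulated data.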

Additional observations from a re-analysis of the deposited data

Results flagged for a closer look

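Barcodes removed by the cell filter, which enter only the alternative that keeps all barcodes, also held UMIs of the 8 genes. At steady state 40 barcodes were removed and held 32 such UMIs. On AngII 221 barcodes were removed and held 1040, or 18.3% of all 5686 UMIs of the 8 genes in that library, and 6 of these barcodes had at least 3 of the genes. Of these, 1 barcode, removed for its 7283 detected genes, held 895 of the 1040, in 74971 UMIs. It had all 8 genes, with 432 UMIs of *Ccl17*, 201 of *Ccr7*, 145 of *Ccl22*, 46 of *Il4i1*, 28 of *Il12b*, 24 of *Socs2*, 12 of *Fscn1* and 7 of *Cacnb3*, and had 7 of 10 mature DC markers and 7 of 8 macrophage markers. Whether it held more than 1 cell was not tested.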

How the results depend on the processing

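Of 530 values under the alternatives, 355 stayed within their counting interval or, for counts, within 1.5 times, 173 moved beyond it, and 2, both of a ratio past 2 times, turned to the other side of 1. Ratios under 2 times crossed 1 as well and are among the 355 and 173, such as *Ccr7* in macrophage-like cells, 1.31 and 0.753 without the top cell, *Ccl17* in cDC2-like cells, 1.68 and 0.924 with classes by summed marker CPM, and *Il4i1* in B cell-like cells, 1.01 and 0.801 with the same classes. The level of each of the 8 genes in AngII mature DC-like cells stayed past 2 times that of other cells in all 13 alternatives that gave a value. The ratio of the summed genes, 66.4, was 52.4 with cells thinned to 1000 UMIs, 40.9 with 500, 52.7 without cells with 3 markers of 2 or more lineages, 60.1 without the top cell and 45 as the mean of single-cell CPM. Alternatives chosen after seeing the data gave 72.5 without cells with 6 markers of 2 or more lineages and 74.3 without lymphocyte-like cells. The share of AngII cells with at least 3 of the genes, 1.26%, was 2.27% with a minimum of 1000 genes, 0.619% both thinned to 500 UMIs and with genes found from 2 UMIs, and 3.11% in cells of at least 5000 UMIs (chosen after seeing the data). The steady-state share, 0.980%, was 0 with 500 UMIs and without cells of 2 or more lineages. Among mature DC-like cells, 52.3% became 81.0% with 1000 genes, 35.9% with classes by summed marker CPM, 31.8% with 500 UMIs, 76.2% with 2000 and 84.2% in cells of at least 5000 UMIs. *Ccr7* in *Fscn1* cells, 56.4%, was 85.7% from 2 UMIs, 81.8% in cells of at least 5000 UMIs and 43.5% (23.2 to 65.5) thinned to 500 UMIs, its lowest value. Counts of genes past 2 times between libraries also moved. In T cell-like cells 3 became 4 (all barcodes, 2 or more markers), 2 (1000 genes, summed marker CPM, cells of at least 5000 UMIs), 1 (thinned to 1000 or 2000 UMIs, without cells of 2 or more lineages, without the top cell) and 0 (500). In macrophage-like cells 6 became 5 (all barcodes), 4 (1000 genes, without the top cell, without cells with 6 markers of 2 or more lineages), 1 (summed marker CPM, 1000 UMIs), 0 (500), 2 (2000 UMIs, without cells of 2 or more lineages) and 3 (cells of at least 5000 UMIs). In cDC2-like cells 4 became 5 (without cells with 6 markers of 2 or more lineages), 3 (without cells of 2 or more lineages), 2 (summed marker CPM), 0 (1000 and 500 UMIs) and 1 (2000). In B cell-like cells 0 became 1 (500). The *Fscn1* ratio in macrophage-like cells reversed to 0.747 without the top cell and 0.559 as the mean of single-cell CPM. Without cells with 6 markers of 2 or more lineages it had too few UMIs to enter the 530 values, at 0.371 CPM on AngII against 2.53. Apart from thinning, which leaves fewer UMIs and cells, the cause was not tested. No paired analysis was possible because each condition has 1 library, and genes at a few UMIs per class, above all *Il12b*, cannot be ranked across classes.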

Other observations

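The mature DC-like class was not uniform. Its 23 cells with at least 3 of the 8 genes had a median of 11016 UMIs, with 747 CPM of *Cd83*, 200.5 of *Cd80*, 161 of *Cd40* and 149 of *Il15ra*. The 21 cells with fewer had a median of 1002 UMIs, 124 CPM of *Cd83*, 74.1 of *Cd80*, 98.8 of *Cd40* and 37.1 of *Il15ra*. *Cxcl2*, a neutrophil chemokine, was at 7287 CPM in these 21 cells, with 590 UMIs in 8 of them, and at 19.7 CPM in the 23. Myeloid genes moved with it, with *Lyz2* at 2075 CPM in the 21 cells and 122 in the 23, *C1qa* at 124 and 35.4 (10 and 9 UMIs), and *Il1rn* at 988 and 252, while *Cd3e* had 0 UMIs in both. MHC class II genes were not lower in the 21 cells. *H2-Aa* was at 12549 CPM there and 8525 in the 23, *H2-Ab1* at 9585 and 5408, *H2-Eb1* at 8770 and 6446, and *Cd74* was near level at 19602 and 19102. This split was drawn after the values were seen, and the part of depth and of other myeloid cells in it was not tested.

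The reporter transcript *EYFP* was found in 2 of 44 AngII mature DC-like cells (4.55%, 0.555 to 15.5; 11.9 CPM), against 327 of 2133 macrophage-like cells (15.3%, 13.8 to 16.9; 98.8 CPM) and 5 of 120 cDC2-like cells (4.17%, 1.37 to 9.46; 20.1 CPM). T cell-like cells, as background, had 5 of 261 (1.92%, 0.625 to 4.41), at median depths of 1823.5, 1184, 4781.5 and 1302 UMIs. Of the 20 AngII cells with at least 5 of the 8 genes, 1 had an *EYFP* UMI (5%, 0.127 to 24.9).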
